A study of Saccharomyces cerevisiae with 20 samples.

Results

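The 137 cytosolic ribosomal protein genes of budding yeast were examined among 5778 measured genes. They were selected by name alone, as RPL or RPS followed by a number and an optional A or B, together with RPP0, RPP1A, RPP1B, RPP2A and RPP2B. The cells were Saccharomyces cerevisiae of the BY4741 background, with CDC33, the gene of the cap-binding factor eIF4E, replaced at its own locus by an integrated HIS3-marked copy. That copy was wild type in the CDC33 strain and temperature sensitive in the cdc33-ts4-2 strain. Each genotype was represented by 1 strain, and every culture grew in YPD at 25°C and then spent 1 h at 25°C or 37°C. Oligo-dT selected RNA was sequenced in 12 RNA-seq libraries, with 3 replicates in each of the 4 groups, and ribosome-protected fragments were sequenced in 8 libraries, with 2 replicates in each group. Cycloheximide, which arrests elongating ribosomes, was added before harvest in all groups. Each culture was split between the temperatures. The design allows comparisons of the strains at each temperature, of the temperatures in each strain, and of the changes between strains.

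Each cytosolic ribosome holds a small subunit, which decodes the mRNA, and a large subunit, which forms peptide bonds and carries a flexible stalk of acidic P proteins that recruits elongation factors. Most yeast ribosomal proteins are encoded by a pair of nearly identical paralogs left by a genome duplication, and ribosomal protein transcripts are among the most abundant in growing cells. Introns are rare in yeast but common in this family, so that ribosomal protein transcripts make up a large share of the work of the spliceosome, and several members control their own splicing. The mRNAs are known for short 5′ UTRs and a strong dependence on efficient initiation.

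Of the 137 genes, 56 encode small subunit proteins, 76 large subunit proteins and 5 stalk proteins. There were 57 paralog pairs, whose coding sequences were identical at a median of 93.2% of aligned positions, with a range of 78.9% to 99.4%. The reference annotation gave an intron to 89 members, and 2 of them, RPL7A and RPL7B, held 2 introns each. The introns of 3 members hosted a small nucleolar RNA. The deposited tables gave a density in every library for 51 members in introns and for 77 in each UTR, and these are the members that could be tested. A value in every library was required of all genes. This kept all 51 members listed in the intron table but 39 of the 120 other genes, and in the UTR tables all 77 members but 1141 of 3856 other genes for the 5′ UTR and 1131 of 3855 for the 3′ UTR. The other genes below are therefore a selected part of those listed. Paralogs share reads. In 24 members less than 50% of the 30-base windows of the coding sequence occurred only once in the genome, and densities rested on uniquely placed reads. A loss of shared coding reads lowers the denominator of such a density. The share of unique windows is given below for only some members, and differences between paralogs were not corrected for it.

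The splice signals of the members with the 3 highest and the 3 lowest mean intron densities are shown first, because the clearest differences between groups lay in intron reads. Sequences and coordinates are from the R64 assembly, each read 5′ to 3′ on the strand of the gene. The windows at the start of an intron hold 6 exon bases and 14 intron bases, with the first 6 intron bases in capitals. RPL7B had the highest mean density, and its first and second introns begin at chrXVI:173157-173176 and chrXVI:173660-173679 on the plus strand. The next highest were RPS14B at chrX:73791-73810 on the plus strand and RPL18B at chrXIV:64437-64456 on the minus strand. The lowest were RPS27B at chrVIII:148653-148672 on the minus strand, RPL31A at chrIV:322277-322296 on the plus strand and RPL33A at chrXVI:282135-282154 on the plus strand.
RPL7B first intron: cactgaGTATGTcaaaaact
RPL7B second intron: aaagccGTATGTtcatttac
RPS14B: ctaacgGTACGTgaaagggg
RPL18B: tagctcGTATGTattgaaat
RPS27B: aatatgGTATGTgaaagaga
RPL31A: aaaagaGTATGTgaaagaat
RPL33A: atagatGTATGTtaaaactg

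The start GTATGT was present in 68 of the 91 introns of members, 74.7%, and in 72.1% of the 190 annotated introns of other nuclear genes. RPS14B carried GTACGT, as did 14 introns of members in all, and RPL30 carried GTCAGT. Among the tested members with 1 intron, mean RNA-seq intron density had a median of 0.0127 over the 40 with GTATGT and of 0.0176 over the 10 with another start. Both ranges were wide, from 0.00411 to 0.153 and from 0.0122 to 0.212, and they overlapped over most of their length. The branch site is shown for the same genes as a window of 19 bases, with TACTAAC in capitals. It lay at chrXVI:174026-174044 in the second intron of RPL7B, at chrX:74168-74186 in RPS14B, at chrXIV:64052-64070 in RPL18B, at chrVIII:148165-148183 in RPS27B, at chrIV:322663-322681 in RPL31A and at chrXVI:282616-282634 in RPL33A.
RPL7B second intron: tgatctTACTAACattaat
RPS14B: tctgttTACTAACaactat
RPL18B: tcccttTACTAACataacg
RPS27B: tcaaatTACTAACatcaat
RPL31A: aatcgtTACTAACaaaaaa
RPL33A: attaaaTACTAACattttg

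TACTAAC, searched on the transcribed strand alone, was found in 85 of the 91 introns of members, 93.4%, against 77.4% of the introns of other genes. It was not among the letters of the first intron of RPL7B, the member with the highest density, nor of the intron of RPL19A. Apart from these cases, members at both ends of the range carried the same letters.

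Transcript and footprint levels were taken as the authors' means over all libraries of an assay, divided by the coding length with its flanks in kilobases, and have no replicate error. The members made up 17.4% of the summed RNA means and 18.3% of the summed footprint means of all genes. Their median level was 14631 normalized counts per kb in RNA-seq, against 158.6 for the other genes. In ribosome profiling it was 17850 normalized counts per kb for the members and 226.4 for the others. RPP0, the stalk base, had the highest RNA level of the family at 83059 per kb, followed by RPL2B at 75850 per kb and RPL4A at 57645 per kb. The lowest were RPL15B at 249.9 per kb, RPL22B at 1131 per kb and RPS9A at 1733 per kb, each the minor copy of its pair. Their partners RPL22A and RPS9B stood at 13285 and 16059 per kb. In ribosome profiling RPL41B, the small basic protein of the large subunit, was highest at 55141 per kb, with RPL41A at 51816 and RPL10, a late-joining protein of the large subunit, at 45126 per kb. The lowest footprint levels were those of RPL15B at 946.2 per kb, RPL22B at 1687 per kb and RPL18B at 2752 per kb.

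The mean footprint count divided by the mean RNA count, a ratio of 2 authors' means, had a median of 1.23 over the members and of 1.33 over the other genes with an RNA mean of 20 or more. The stalk genes were all low in this ratio, from 0.337 for RPP0 through 0.491 for RPP1A, 0.576 for RPP2A and 0.593 for RPP1B to 0.677 for RPP2B. RPL4A and RPL4B, which encode a long protein lining the exit tunnel, had the lowest ratios of the family, 0.240 and 0.245. Only 18.1% of the windows were unique in both, and the reads of the pair cannot be separated. The highest ratio was 3.79 for RPL15B. RPL3 had 0.673, RPL30 0.751, RPS14A 0.625 and RPS14B 0.821. RPL28, whose pre-mRNA is a target of nonsense-mediated decay, had 1.36. The genes whose products are made as fusions to ubiquitin had 1.07 for RPS31, 0.971 for RPL40A and 1.44 for RPL40B. Across the 137 genes the log2 ratio fell with the log2 RNA level, with a Spearman coefficient of -0.74 and a Pearson coefficient of -0.72. The RNA mean enters both quantities, so that this relation is given as a description.

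**Figure D1:**
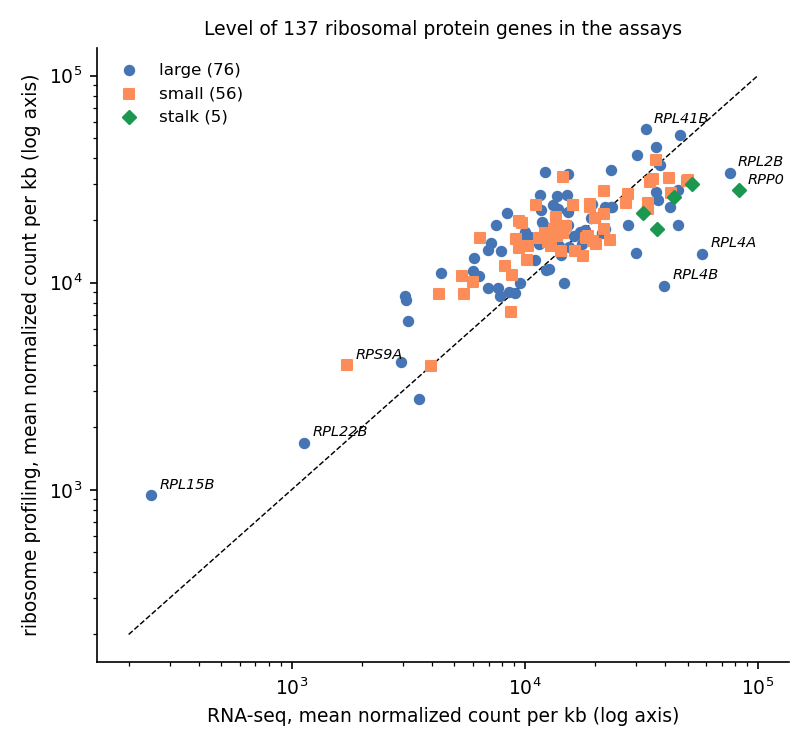
Level of each of the 137 genes, as mean normalized counts per kb in RNA-seq (horizontal, log axis) and in ribosome profiling (vertical, log axis), with large subunit, small subunit and stalk genes marked and a dashed line of equal values. RPL15B lies lowest in both assays, and all 5 stalk genes and RPL4A and RPL4B lie below the line.

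Intron density is the number of reads per intron base divided by the coverage per coding base of the same gene and library, so a value of 0.01 means 1 intron read per base for every 100 coding reads per base. It can rise through more intron reads or through fewer coding reads, and the ratio alone cannot tell these apart. The median density over the 51 members was 0.00683, 0.00944 and 0.00802 in the CDC33 libraries at 25°C and 0.0145, 0.0158 and 0.0162 in the cdc33-ts4-2 libraries at 25°C. Every cdc33-ts4-2 library lay above every CDC33 library at this temperature. At 37°C the medians were 0.0118, 0.0120 and 0.0108 in CDC33 and 0.0196, 0.0229 and 0.0219 in cdc33-ts4-2. The 4 groups thus followed each other without overlap, from CDC33 at 25°C to cdc33-ts4-2 at 37°C. The mean of the medians was 1.91 ± 0.33 times as high in cdc33-ts4-2 as in CDC33 at 25°C, where the error combines the SD of 3 libraries in each group. The same ratio for the 39 other genes with complete intron values was 1.17.

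**Figure D2:**
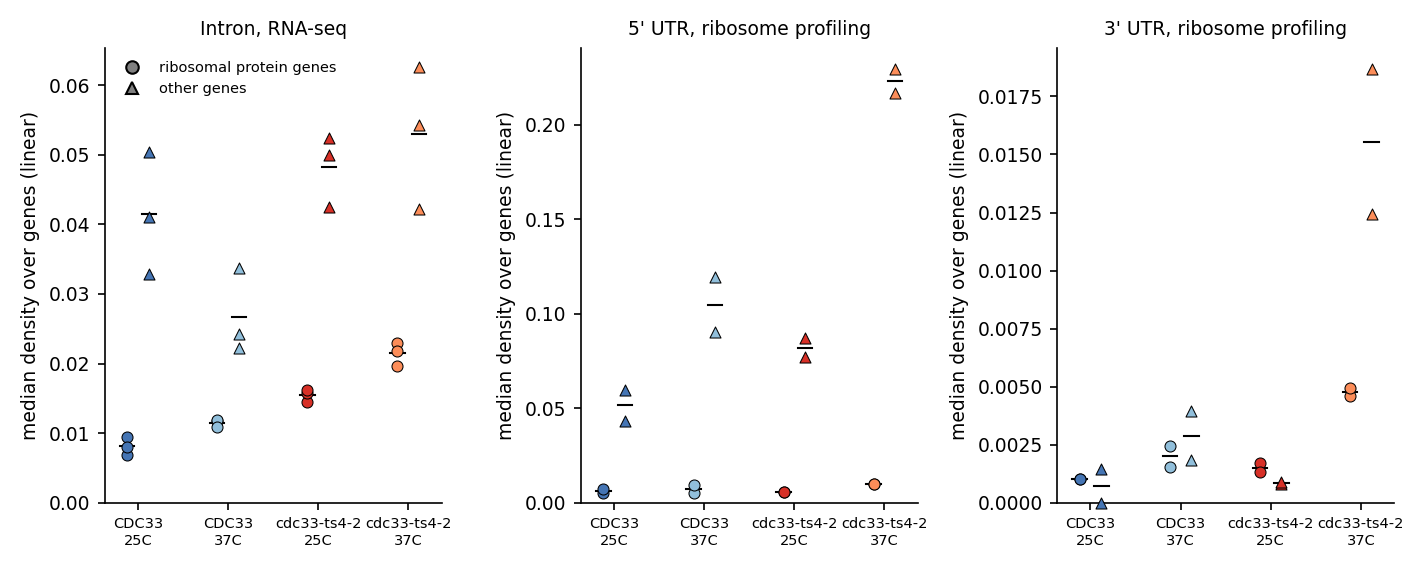
Median density over genes in each library (1 point each, linear axes, bars at group means) for introns in RNA-seq and for 5′ and 3′ UTRs in ribosome profiling, with ribosomal protein genes as circles and other genes as triangles. The intron medians of the members rise from between 0.00683 and 0.00944 in CDC33 at 25°C to between 0.0196 and 0.0229 in cdc33-ts4-2 at 37°C.

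The intron density of ribosomal protein genes was higher in the mutant at 25°C, without the shift of temperature. At 25°C, 44 of the 51 members passed the threshold with a higher intron density in cdc33-ts4-2 than in CDC33, and 0 with a lower one. The threshold was a Benjamini-Hochberg adjusted p of 0.05 from limma, fitted across all 90 genes. Over all 90 genes, of which the members are 51, the share called (percent_called) was 52.2% higher and 1.11% lower. Of the 39 other genes 3 were higher and 1 was lower. The median difference was 0.88 on the log2 scale for the members and 0.14 for the others, a shift of 0.74 over all genes tested. The values are for log2 of density plus 0.001, which understates the changes of low genes. All 51 differences were positive, and the 7 members that missed the threshold ran from 0.20 for RPP1B to 0.74 for RPL13B. When each library was centred on its median gene, which is itself mostly set by members, 5 members were higher and 0 lower. When it was centred on the median of the other 39 genes, 12 were higher and 0 lower.

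RPL31A, a large subunit protein near the tunnel exit, showed the largest difference between the strains at 25°C. Its intron density was 0.00145, 0.00141 and 0.00236 in CDC33 and 0.00593, 0.00615 and 0.00653 in cdc33-ts4-2. The groups did not overlap, and the log2 difference was 1.41 ± 0.31 (SE, limma adjusted p = 0.00360). RPL33B, RPL39 and RPS6A followed. RPL33B had 0.00807, 0.00931 and 0.00972 in CDC33 and 0.0229, 0.0249 and 0.0210 in cdc33-ts4-2, a log2 difference of 1.26 ± 0.17. RPL39, a very small protein of the tunnel wall, had 0.00411, 0.00532 and 0.00672 in CDC33 and 0.0141, 0.0158 and 0.0122 in the mutant, a difference of 1.25 ± 0.17. In RPS6A, a phosphorylated protein of the small subunit, the values were 0.0152, 0.0135 and 0.0172 against 0.0343, 0.0487 and 0.0300, and the difference was 1.22 ± 0.41. These 4 members show the strain difference at low levels of unspliced signal, well under 0.1 of the coding coverage. Only 19.1% of the windows of RPS6A were unique, and its limma adjusted p of 0.0288 rose above 0.05 when CDC33 replicate 1, 2 or 3 or cdc33-ts4-2 replicate 1 or 2 at 25°C was left out.

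**Figure D3:**
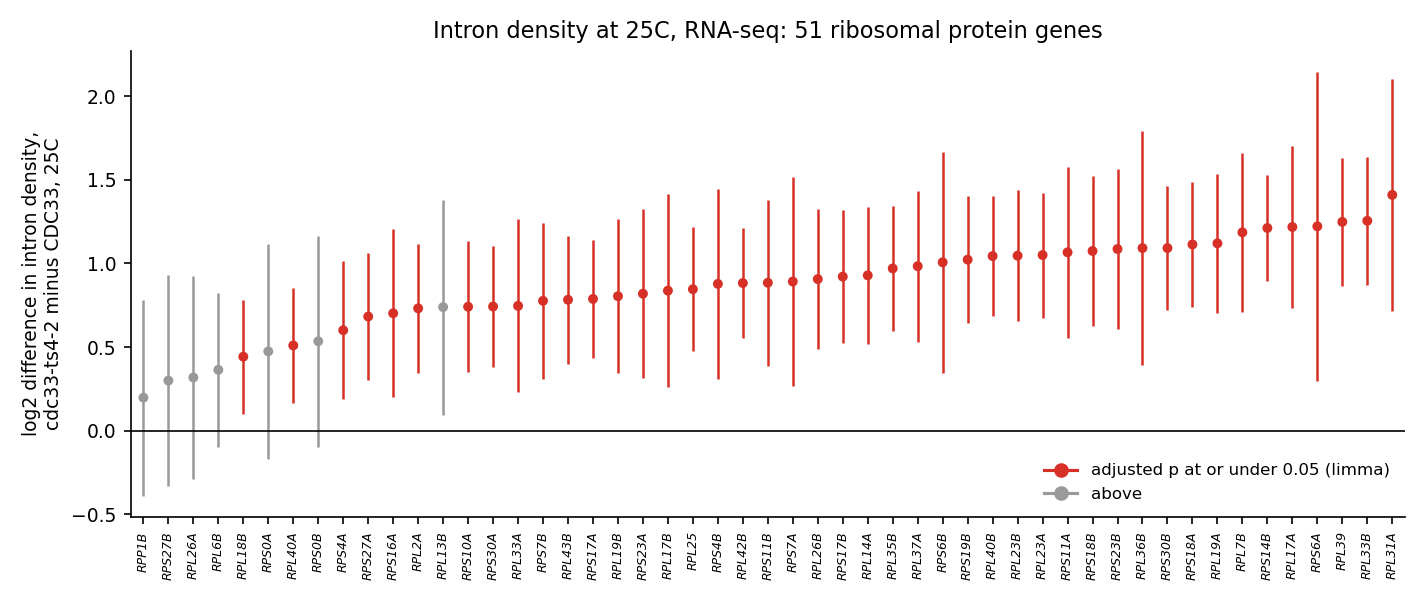
Log2 difference in RNA-seq intron density between cdc33-ts4-2 and CDC33 at 25°C for each of the 51 members (vertical axis), ordered by size, with 95% intervals from limma and calls in red. All 51 points lie above 0, from 0.20 for RPP1B to 1.41 for RPL31A, and 44 are called.

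The members with the highest intron densities followed the same direction between strains. RPL7B had values of 0.280, 0.215 and 0.295 in CDC33 at 25°C and of 0.601, 0.753 and 0.463 in cdc33-ts4-2 at 25°C. At 37°C it had 0.247, 0.196 and 0.276 in CDC33 and 0.809, 0.734 and 0.881 in cdc33-ts4-2, so that intron coverage came close to coding coverage in the mutant. Its strain difference was 1.19 ± 0.21 at 25°C and 1.76 ± 0.21 at 37°C (limma adjusted p = 0.00169 and 0.000187). RPL7B is the minor copy of a large subunit protein, with an RNA level of 2937 per kb against 22116 for RPL7A. One of its introns hosts SNR59, a guide RNA for rRNA methylation, and the authors removed reads of small nucleolar RNAs before mapping. Only 30.6% of its coding windows were unique, and the part of lost coding reads in its density was not tested.

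RPS14B encodes a small subunit protein whose product binds its own pre-mRNA. Its intron density was 0.154, 0.173 and 0.178 in CDC33 at 25°C and 0.348, 0.406 and 0.421 in cdc33-ts4-2 at 25°C. At 37°C it was 0.0760, 0.0677 and 0.0622 in CDC33 and 0.223, 0.237 and 0.196 in the mutant. The value therefore fell with temperature in both strains and was higher in the mutant at both temperatures, with no overlap between any 2 groups. The strain difference was 1.21 ± 0.14 at 25°C and 1.66 ± 0.14 at 37°C (limma adjusted p = 0.000664 and 4.01e-05). RPL18B, the minor copy of another large subunit protein, had 0.151, 0.168 and 0.143 in CDC33 at 25°C and 0.0683, 0.0732 and 0.0784 at 37°C. In the mutant it had 0.206, 0.240 and 0.185 at 25°C and 0.149, 0.197 and 0.176 at 37°C, so the groups at these temperatures overlapped.

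**Figure D4:**
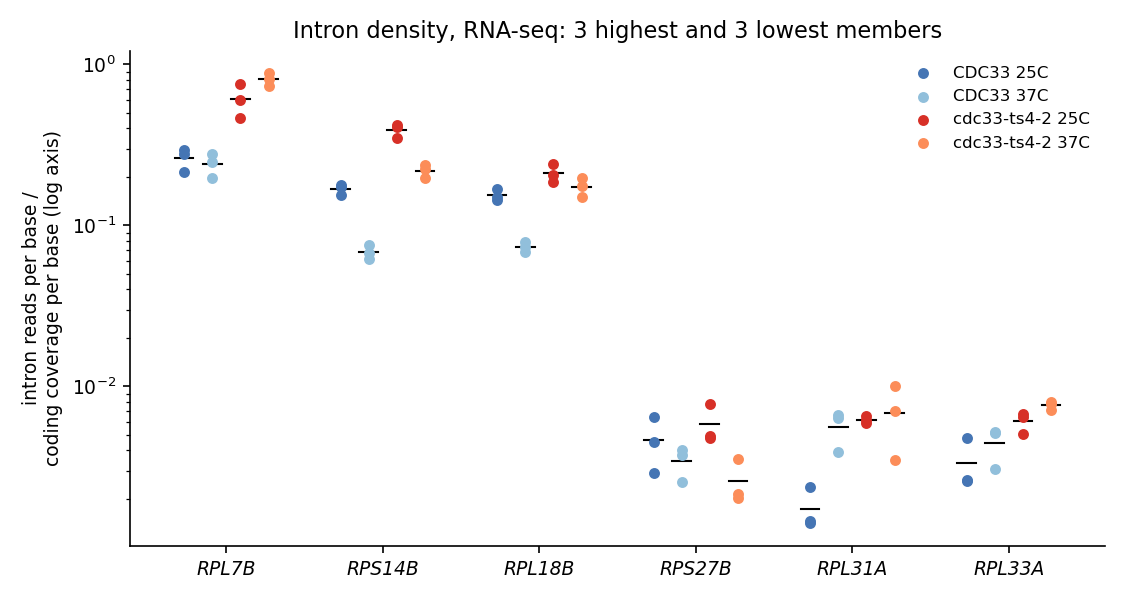
RNA-seq intron density (vertical, log axis) of the members with the 3 highest and the 3 lowest means, in each of the 12 libraries, with bars at the means of 3 libraries and groups by colour. RPS14B falls at 37°C in both strains, and RPL7B reaches 0.734 to 0.881 in cdc33-ts4-2 at 37°C.

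At 37°C, 33 of the 51 members had a higher intron density in cdc33-ts4-2 than in CDC33 and 0 had a lower one, where percent_called was 53.3 over all 90 genes. Of the other genes 15 of 39 were higher at this temperature, and their median difference was 1.00 against 0.72 for the members. Centred on the median gene, 3 members were higher and 3 lower, and centred on the other genes 0 were higher and 1 lower. The largest differences after RPL7B and RPS14B were in RPL43B and RPL36B, both of the large subunit. RPL43B had 0.00892, 0.00755 and 0.00669 in CDC33 at 37°C and 0.0222, 0.0256 and 0.0245 in the mutant, a difference of 1.53 ± 0.17. RPL36B had 0.0223, 0.0136 and 0.0127 against 0.0309, 0.0631 and 0.0447, a difference of 1.44 ± 0.31.

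The shift to 37°C raised the intron density of part of the family in wild-type cells. In CDC33, 19 of the 51 members rose, where percent_called was 21.1 over all genes, and 2 fell, where it was 11.1. All 19 genes called higher in this comparison were members, while 8 of the 39 other genes fell and 0 rose. The median change was 0.45 on the log2 scale for the members and -0.49 for the others. Centred on the other genes, 38 members rose and 0 fell, since RPS14B and RPL18B no longer passed the threshold. Among large subunit members 11 of 26 rose and among small subunit members 8 of 24.

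RPL39 rose most in CDC33, from 0.00411, 0.00532 and 0.00672 at 25°C to 0.0140, 0.0157 and 0.0167 at 37°C, a log2 change of 1.38 ± 0.17 (limma adjusted p = 0.000411). RPL40B, a ubiquitin fusion, rose from 0.00433, 0.00456 and 0.00393 to 0.0130, 0.0119 and 0.0108, a change of 1.29 ± 0.16. RPL19B rose from 0.00511, 0.00595 and 0.00710 to 0.0145, 0.0130 and 0.0214, a change of 1.27 ± 0.21. In each of these members every library at 37°C lay above every library at 25°C. RPL31A rose from the values above to 0.00638, 0.00391 and 0.00661, a change of 1.26 ± 0.31. The 2 members that fell were RPS14B, by 1.28 ± 0.14 (limma adjusted p = 0.000403), and RPL18B, by 1.06 ± 0.15 (limma adjusted p = 0.000792), both among the 3 members of highest density.

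In cdc33-ts4-2, 15 members rose between 25°C and 37°C, where percent_called was 21.1, and 3 fell, where it was 6.67. The median change was 0.36 for the members and 0.02 for the others. RPL19B rose from 0.00894, 0.0124 and 0.0128 to 0.0398, 0.0412 and 0.0391, a log2 change of 1.75 ± 0.21 and the largest of the family. RPL36B rose from 0.0227, 0.0250 and 0.0162 to 0.0309, 0.0631 and 0.0447, by 1.05 ± 0.31. The ubiquitin fusions RPL40A and RPL40B rose by 0.87 ± 0.16 and 0.85 ± 0.16. RPS14B fell by 0.84 ± 0.14. RPP1B, the only stalk gene with a tested intron, fell from 0.00968, 0.00706 and 0.0113 to 0.00335, 0.00437 and 0.00369, by 1.09 ± 0.26. RPS27B, a zinc-binding protein of the small subunit, fell from 0.00489, 0.00477 and 0.00777 to 0.00202, 0.00213 and 0.00355, by 0.93 ± 0.28. In both genes the ranges at the temperatures were apart. Without cdc33-ts4-2 replicate 3 at 25°C the count of members called was 11 and RPP1B and RPS27B did not pass, and centred on the other genes only 1 member did. Over 19 alternative settings in all, RPL36B and RPS27B lost their calls in 7 each and RPP1B in 2.

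The libraries at 25°C and 37°C of a strain were compared with their own controls, and 13 members were called in both strains, 8 in CDC33 alone and 5 in cdc33-ts4-2 alone. The difference of the changes between strains was tested directly, and 0 members and 0 of all 90 genes passed, a percent_called of 0.0. At an unadjusted p under 0.05 limma gave 6 members and 14 genes. RPL18B was nearest, with a difference of 0.79 ± 0.22 (limma adjusted p = 0.0934), and RPL31A had -1.24 ± 0.44 (limma adjusted p = 0.139). Members called in 1 strain alone are therefore not shown to respond differently.

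**Figure D5:**
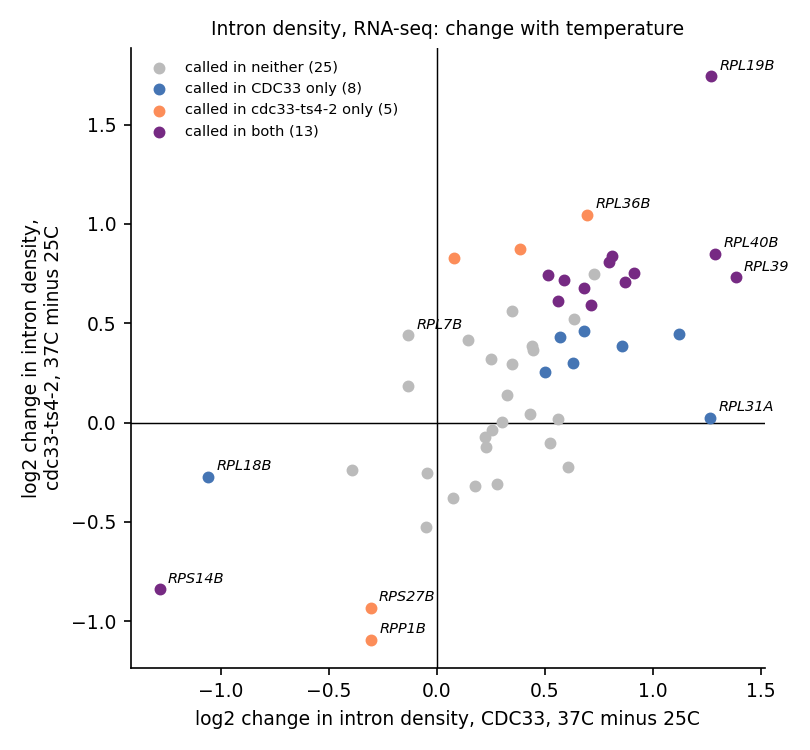
Log2 change in RNA-seq intron density from 25°C to 37°C for the 51 members in CDC33 (horizontal) and in cdc33-ts4-2 (vertical), with colours for the strain in which a change was called. RPL19B lies at the upper right with changes of 1.27 and 1.75, and RPS14B at the lower left with -1.28 and -0.84.

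The 3 paralog pairs that differed most in intron density did so in the same direction in every RNA-seq library. RPS27A exceeded RPS27B in 12 of 12 RNA-seq libraries, with means of 0.0392 and 0.00411, and RNA levels of 5483 and 49803 per kb. RPS7B exceeded RPS7A in 12 of 12, with means of 0.0300 and 0.00728 and levels of 4292 and 20095 per kb. RPL33B exceeded RPL33A in 12 of 12, with means of 0.0162 and 0.00539 and levels of 6002 and 19249 per kb. In each of these 3 pairs, chosen as the most different, the copy with the lower RNA level had the higher intron density. This did not hold for all pairs. RPL40A, RPL26B, RPS0B, RPS30A, RPS4A and RPS6B had both the higher RNA level and the higher mean intron density of their pairs. RPS17A and RPS17B, of the small subunit, had 0.0120 and 0.0313, with levels of 19014 and 8241 per kb. The strain difference of this pair at 25°C was 0.79 ± 0.16 and 0.92 ± 0.18, and both were called. Over the 51 members the log2 mean density had a Spearman coefficient of -0.54 and a Pearson coefficient of -0.67 with the log2 RNA level, and coefficients of -0.59 and -0.55 with the share of unique coding windows. The 8 members with under 50% unique windows had a median density of 0.0280, the 25 with 50% to 90% one of 0.0154 and the 18 with 90% or more one of 0.00958. Both quantities share the coding reads of the gene. The strain difference at 25°C had a Spearman coefficient of -0.20 with the share of unique windows. Weighting by that share and leaving out members under 50% gave a strain ratio of 1.89 in place of 1.91. Each gene has the same weight in every library, so the weight cannot change the strain ratio of a gene. The part of shared reads in the ratio was thus not tested.

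The intron density of ribosome footprints was far lower. Its median over the members was 0.000661 and 0.000658 in CDC33 at 25°C, 0.00130 and 0.00150 in CDC33 at 37°C, 0.000346 and 0.000682 in cdc33-ts4-2 at 25°C and 0.00308 and 0.00262 in cdc33-ts4-2 at 37°C. The medians at 37°C exceeded those at 25°C in both strains. RPL7B and RPL35B had the highest means, with values of 0.00424 to 0.0402 and of 0.00492 to 0.0294 over the 8 libraries. RPS14B, second highest in RNA-seq, had between 0.00148 and 0.00559 in ribosome profiling.

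The paper reports that its footprints lacked the usual lengths and the usual excess of reads in frame, possibly through incomplete RNase digestion. It accepted them as ribosome-protected because they were enriched in coding sequences and 5′ UTRs and rare in introns and 3′ UTRs. A further ground was that positional coverage gathered near the annotated start codon. The 5′ UTR density of footprints, which counts such fragments upstream of the start codon relative to the coding sequence, was low in ribosomal protein genes. Its median over the 77 members was 0.00498 and 0.00752 in CDC33 at 25°C and 0.00496 and 0.00923 at 37°C. In cdc33-ts4-2 it was 0.00559 and 0.00555 at 25°C and 0.01011 and 0.01002 at 37°C. The CDC33 groups overlapped, while both mutant libraries at 37°C exceeded all the others. The group medians of the 1141 other genes were 0.0515, 0.105, 0.0819 and 0.223 in the same order of groups. The RNA-seq 5′ UTR density was also lower in the members, with library medians from 0.0548 to 0.121 against 0.369 to 0.713 for the others.

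In CDC33, 5 of the 77 members rose in footprint density of the 5′ UTR at 37°C, where percent_called was 14.9 over 1218 genes, and 0 fell, where it was 0.493. In cdc33-ts4-2, 10 rose, where percent_called was 18.1, and 1 fell, where it was 0.411. The members' median changes were 0.04 and 0.27 on the scale of log2 of density plus 0.01, against 0.78 and 0.87 for the other genes, and the median over all genes tested moved by 0.73 and 0.80. That pseudocount exceeds most of the members' densities, so their changes are understated more than those of the others. Centred on the median gene, 0 members rose and 0 fell in CDC33, and 0 rose and 32 fell in cdc33-ts4-2. The difference of the changes was called for 0 members, where percent_called was 0.164, and the strains at 25°C for 0, where it was 0.328. At an unadjusted p under 0.05 limma gave 13 and 7 members, or 16.9% and 9.09% of them, against 11.6% and 27.1% of all genes.

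RPP2B, an acidic protein of the stalk, had the largest rise in CDC33. Its density was 0.0272 and 0.0483 at 25°C and 0.127 and 0.164 at 37°C, a log2 change of 1.73 ± 0.37 (limma adjusted p = 0.0406). In cdc33-ts4-2 it was already 0.241 and 0.223 at 25°C and was 0.142 and 0.262 at 37°C, with overlapping ranges. RPS2, a small subunit protein at the mRNA entrance, was called in both strains. It had 0.0127 and 0.0190 in CDC33 at 25°C and 0.0438 and 0.0769 at 37°C. In the mutant it had 0.0547 and 0.0578 at 25°C and 0.140 and 0.183 at 37°C. Its changes were 1.42 ± 0.30 and 1.36 ± 0.30. The other large rises in CDC33 were 1.42 ± 0.29 in RPL17B and 1.04 ± 0.20 in RPL6B, both of the large subunit.

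In cdc33-ts4-2 the largest rises after the shift were in RPL35B, RPS6B and RPS4B. RPL35B, of the large subunit, went from 0.0544 and 0.0991 to 0.339 and 0.204, a change of 1.71 ± 0.38. RPS6B went from 0.0216 and 0.0309 to 0.0938 and 0.0992, a change of 1.57 ± 0.19 (limma adjusted p = 0.0120). RPS4B, of the small subunit, went from 0.0406 and 0.0339 to 0.116 and 0.115, a change of 1.41 ± 0.23. The ranges of the groups were apart in these 3 members. RPS20, of the small subunit head, was the member that fell, from 0.0336 and 0.0426 to 0.0110 and 0.00504, by 1.43 ± 0.27 (limma adjusted p = 0.0299). RPS20 was listed at 0 in all 12 RNA-seq libraries for the same region, as were 8 other members. All these calls rest on 2 libraries a group. In CDC33 0 members were called without CDC33 replicate 1 at 25°C, either CDC33 replicate at 37°C or either cdc33-ts4-2 replicate at 25°C, and 2 without either cdc33-ts4-2 replicate at 37°C. In cdc33-ts4-2 0 were called without either of its replicates at 25°C, and 1 and 2 without replicates 1 and 2 at 37°C.

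The RNA-seq density of 5′ UTRs moved in few members. In CDC33 0 of 77 were called, where percent_called was 0.328, with 11 at an unadjusted p under 0.05 in limma, or 14.3%, against 134 of all 1218 genes. In cdc33-ts4-2 3 rose, where percent_called was 3.94. RPS4A went from 0.0169, 0.0239 and 0.0200 to 0.0578, 0.0956 and 0.0785, a change of 1.51 ± 0.20 (limma adjusted p = 0.00242). RPL17B went from 0.286, 0.373 and 0.246 to 0.606, 0.517 and 0.703, a change of 1.00 ± 0.19, and RPS30B changed by 0.61 ± 0.13. Each of these members had its 3 libraries at 37°C above those at 25°C. The count was 5 without CDC33 replicate 3 at 25°C and 1 without cdc33-ts4-2 replicate 1 or 3 at either temperature. The difference of the changes was called for 0 members, where percent_called was 1.07, with 4 at an unadjusted p under 0.05 in limma, or 5.19%, against 13.6% of all genes. The paralog pairs that differed most in this density were RPL33A and RPL33B with means of 0.443 and 0, RPS28A and RPS28B with 0 and 0.146, and RPS4A and RPS4B with 0.0347 and 0.506. A value of 0 in all 12 libraries is given as listed, without a fold. The cause of such values was not tested, so they are not shown to be a difference between paralogs. Of the 77 members 9 had them and could not be called in this density. RPP0 had 5′ UTR densities of 0.917 to 1.79 in RNA-seq and of 0.0230 to 0.157 in ribosome profiling, and in RNA-seq only RPL7B and RPS6A had higher means.

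The footprint density beyond the stop codon was highest in the mutant at 37°C. The median 3′ UTR density of the 77 members was 0.00104 and 0.00104 in CDC33 at 25°C, 0.00152 and 0.00246 in CDC33 at 37°C, 0.00170 and 0.00131 in cdc33-ts4-2 at 25°C and 0.00460 and 0.00494 in cdc33-ts4-2 at 37°C. Both CDC33 libraries at 25°C lay below all the others and both mutant libraries at 37°C above all the others, while the ranges of the remaining groups overlapped. The medians of 1131 other genes in that group were 0.0124 and 0.0187. In CDC33 0 members were called, where percent_called was 1.16 over 1208 genes, and 3 had an unadjusted p under 0.05 in limma, or 3.90%, against 7.86% of all genes. In cdc33-ts4-2 23 rose and 0 fell, where percent_called for a rise was 36.8. The members' median change was 0.34 against 0.99 for the other genes, with a shift of 0.91 over all genes. The pseudocount of 0.01 exceeded every library median of the members, so their changes are understated in both strains. Without it, the mean of the members' medians rose 3.16 ± 0.60 times in cdc33-ts4-2 and 1.92 ± 0.64 times in CDC33. For the other genes it rose 18.1 and 3.95 times, from medians of 0.000858 and 0.000732 at 25°C. Of the 1131 other genes, 541 and 524 were at 0 in the cdc33-ts4-2 libraries at 25°C and 426 and 602 in those of CDC33. The median of CDC33 replicate 2 was itself 0, so the folds of the other genes start at the floor. Between 0 and 3 members were at 0 in these libraries, so the folds of the members and the other genes are not comparable. Centred on the median gene, 1 member rose and 24 fell. Without cdc33-ts4-2 replicate 1 or 2 at 37°C, 42 and 36 members were called. The RNA-seq density of 3′ UTRs had library medians between 0.361 and 0.621 for the members, with overlap of all groups.

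RPL4A changed most in 3′ UTR footprints. It had 0.00300 and 0.00365 in CDC33 at 25°C, 0.00431 and 0.00447 in CDC33 at 37°C, 0.00235 and 0.00583 in the mutant at 25°C and 0.0494 and 0.125 in the mutant at 37°C. The change in the mutant was 2.68 ± 0.40 (limma adjusted p = 0.00748), and 18.1% of its coding windows were unique. RPS7B went from 0.00207 and 0.00187 to 0.0491 and 0.0357, a change of 2.12 ± 0.15 (limma adjusted p = 0.00120). Its paralog RPS7A had 0.00260 and 0.00106 at 25°C and 0.00870 and 0.00792 at 37°C. RPS6B went from 0.00475 and 0.00341 to 0.0699 and 0.0403, by 2.17 ± 0.37, and RPL7B from 0.00589 and 0.00539 to 0.0486 and 0.0191, by 1.40 ± 0.35. In these members both mutant libraries at 37°C lay above all 6 others. Over 14 alternative settings the call in the mutant was lost in 9 for RPL7B, 3 for RPS6B, 1 for RPS7B and 0 for RPL4A.

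The change in cdc33-ts4-2 exceeded that in CDC33 for 10 members, where percent_called for this direction was 17.3, and no member was called the other way. Besides RPL4A and RPS7B, with differences of 2.57 ± 0.57 and 1.895 ± 0.21, the largest were 1.04 ± 0.13 in RPL19A and 1.03 ± 0.20 in RPS23B, which encodes a protein of the decoding centre. RPL19A had 0.00268, 0.00405, 0.00396 and 0.00430 in CDC33, 0.00275 and 0.00204 in the mutant at 25°C and 0.0168 and 0.0172 in the mutant at 37°C. The count was 0 after centring on the median gene. It was 2 without CDC33 replicate 1 or 2 at 25°C or cdc33-ts4-2 replicate 1 at 25°C, 3 without CDC33 replicate 1 at 37°C, 1 without cdc33-ts4-2 replicate 2 at 25°C, and 20 and 16 without cdc33-ts4-2 replicates 1 and 2 at 37°C. RPL4A lost its call without any 1 of the 6 libraries of the other groups, and RPS23B lost its call under 9 of 14 alternative settings. In RNA-seq the paralogs that differed most in 3′ UTR density were RPS27A and RPS27B with 0.811 and 0.123, RPL19A and RPL19B with 1.00 and 0.265, and RPS25A and RPS25B with 0.135 and 0.445.

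Genes that act with the ribosomal proteins were taken from lists by function. Of 11 translation elongation factor genes, TEF4 and EFB1, which encode parts of the exchange factor for elongation factor 1A, were in the intron table. Both were higher in the mutant at 25°C and at 37°C and both rose with temperature in the mutant. Over all 90 genes percent_called was 52.2, 53.3 and 21.1 for these increases. EFB1 averaged 0.0796 ± 0.0163 in CDC33 at 25°C, 0.0707 ± 0.0225 in CDC33 at 37°C, 0.307 ± 0.090 in the mutant at 25°C and 0.745 ± 0.283 in the mutant at 37°C (SD, n = 3). Its strain differences were 1.91 ± 0.36 and 3.34 ± 0.36, larger than in any of the 51 members. Of the 6 tested factor genes, 4 rose in 3′ UTR footprints in the mutant, where percent_called was 36.8 over 1208 genes. They were EFB1, TEF1, TEF4 and YEF3. Of 8 transcription regulators of ribosomal protein genes 4 could be tested in the UTRs. ABF1 rose in 5′ UTR footprints in the mutant, where percent_called was 18.1. SFP1 fell in 3′ UTR footprints, by 1.71 ± 0.11 in CDC33 and by 1.91 ± 0.11 in cdc33-ts4-2. Falls were called there in 3 and 5 of 1208 genes. RAP1, the general activator of the family, fell by 1.58 ± 0.16 in RNA-seq 5′ UTR density in CDC33 at 37°C, where 2 of 1218 genes fell. In the mutant RAP1 changed by -0.05 ± 0.16. Its difference of the changes was called, at 1.53 ± 0.22 (limma adjusted p = 0.0132), where percent_called was 1.07. Its 5′ UTR footprint changes, 2.88 ± 0.93 in CDC33 and 2.66 ± 0.93 in cdc33-ts4-2, were not called. Of 9 dedicated chaperones of ribosomal proteins only SQT1, the chaperone of Rpl10, could be tested, and it was called in no comparison.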

How the data were processed

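RNA-seq of 12 and ribosome profiling of 8 libraries were analysed. The authors deposited densities as a ratio of reads per base of a region to the mean coverage of the coding sequence, 1 value a library, from STAR 2.7.10b alignments (version per the submitters' processing notes) of unique reads counted with featureCounts by strand. Genes with a blank in any library were not analysed here. The study removed outlying densities before plotting, and whether this or another step left the blanks is not given in the sources used here. UTR ends came from a published annotation or default lengths. The authors also deposited a mean signal per gene, from Salmon 1.9.0 and DESeq2 1.32.0, used here as a level, and log2 fold changes, standard errors and p-values of their own comparisons, which were not used. Read totals are not given in these tables, so depth is unknown. Densities were tested with limma 3.58.1 on log2 of density plus 0.001 (introns) or 0.01 (UTRs), all groups of an assay together, with Benjamini-Hochberg adjustment over all genes at 0.05. Named members were the 4 largest called changes in each direction and comparison, a list of members with known regulation, the 3 highest and lowest levels and intron densities, and the 3 paralog pairs differing most. Members and lists were chosen with earlier results of these data known. The comparisons between strains at 1 temperature were added after the data were seen. The labels do not say that replicates are separate cultures, but the study calls them biological duplicates for ribosome profiling and biological triplicates for RNA-seq. Replicate numbers were checked for pairing from the correlation of same-numbered libraries' deviations from their group means. In introns every same-numbered pair exceeded 0.1 between temperatures in CDC33 (0.11 to 0.22) and between strains at 25°C (0.28 to 0.72). This was taken as a hint of pairing from the data and not the labels. Differently numbered intron pairs reached 0.20 within a strain and 0.32 between strains. In 5′ UTRs the same RNA-seq libraries gave -0.10 to -0.002 and -0.007 to 0.03, so pairing is not established. Sequences and coordinates were read from RefSeq's R64 assembly.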

Additional observations from a re-analysis of the deposited data

Results flagged for a closer look

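The change in 3′ UTR footprint density with temperature differed between the strains, by limma's test of the difference itself, for 10 of 77 ribosomal protein genes. Over all 1208 genes 209 had a larger change in cdc33-ts4-2, or 17.3%, a higher share than in the members. The count was 0 after centring on the median gene, 2 with the replicate number as a block and between 1 and 20 when 1 library was left out. The 4 largest differences on the log2 scale were 2.57 in RPL4A, 1.895 in RPS7B, 1.04 in RPL19A and 1.03 in RPS23B, each larger in cdc33-ts4-2. The adjusted p of these 4 members ran from 0.00962 in RPS7B to 0.0420 in RPL4A. In RPS7B both mutant libraries at 37°C, 0.0491 and 0.0357, lay above the 6 others, of which the highest was 0.00372. In RPL4A they were 0.0494 and 0.125 against a highest value of 0.00583. Each rests on 2 libraries a group, and RPL4A and RPS23B lost their calls under the block. RPL4A also lost its call without any 1 of the 6 libraries other than those of cdc33-ts4-2 at 37°C. Over 14 alternative settings in all, the call was lost in 10 for RPL4A, 9 for RPS23B, 3 for RPL19A and 1 for RPS7B.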

How the results depend on the processing

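Of 41 calls of named members, 33 lost the threshold under at least one setting, and 0 of 691 values changed direction. Depth is unknown from these tables, and profiling rests on 2 libraries a group. Except where a value's construction shows it, the cause of a change was not tested.

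Centring each library on its median gene gave 11 members called in introns with temperature in cdc33-ts4-2 in place of 18, 5 and 6 between strains at 25°C and 37°C in place of 44 and 33, 0 and 32 in 5′ UTR footprints in CDC33 and cdc33-ts4-2 in place of 5 and 11, 1 in RNA-seq 5′ UTRs in cdc33-ts4-2 in place of 3, and 0 for the strains' difference in 3′ UTR footprints in place of 10. Centring on the other genes, chosen after seeing the data, gave 38 members in introns in CDC33 in place of 21, 1 in cdc33-ts4-2, and 12 and 1 between strains at 25°C and 37°C. A pseudocount 10 times larger gave 0 in 5′ UTR footprints in CDC33 and 5 for the 3′ UTR difference, and one 10 times smaller gave 4 for the latter. Leaving out genes at 0 in most libraries gave 5 for it. A variance trend gave 2 in 5′ UTR footprints and 2 in RNA-seq 5′ UTRs in CDC33, 6 in RNA-seq 5′ UTRs in cdc33-ts4-2 and 5 for the 3′ UTR difference. Means over the members in place of medians gave 37°C to 25°C ratios of 1.06 and 1.17 for introns in CDC33 and cdc33-ts4-2, in place of 1.42 and 1.39, and of 4.43 for 3′ UTR footprints in cdc33-ts4-2, in place of 3.16.

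Cultures were split between temperatures, but the labels do not tie the replicate numbers to cultures. All same-numbered pairs exceeded 0.1 only in introns, between temperatures in CDC33 and between strains at 25°C. There the block gave 17 and 45 members in place of 21 and 44 and lost no call of a named member. Elsewhere the correlations of same-numbered libraries were not all over 0.1, from -0.18 to -0.02 between temperatures in cdc33-ts4-2 and from -0.29 to 0.08 between strains at 37°C in introns. With the replicate number as a block, 3 members were called in 5′ UTR footprints in CDC33 and 2 for the 3′ UTR difference. The block gave 15 in introns in cdc33-ts4-2 and 32 between strains at 37°C.

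Leaving out 1 library at a time gave 15 to 22 members in introns in CDC33, 11 to 19 in cdc33-ts4-2, 33 to 45 between strains at 25°C, 28 to 36 at 37°C and 0 for the difference of changes. The range was 0 to 6 and 0 to 13 in 5′ UTR footprints in CDC33 and cdc33-ts4-2, 0 to 2 between strains at 25°C, 0 to 1 and 1 to 5 in RNA-seq 5′ UTRs, 0 and 16 to 42 in 3′ UTR footprints, and 1 to 20 for their difference.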
